A study of Mus musculus with 8 samples.

Results

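Non-collagen markers of ovarian stroma and fibroblasts, 10 genes in all, were chosen by name (Dcn, Lum, Tcf21, Pdgfra, Pdgfrb, Lox, Nr2f2, Mfap4, Postn and Bgn), and 9 of them had a row among the 11783 genes of the expression table. Pdgfrb had no row and was not analysed here. Expression was measured by RNA-seq in granulosa cells isolated from C57BL/6 mice, in 4 libraries from mice 1 day after birth (PND1) and 4 from mice 4 days after birth (PND4). No mutant allele or treatment is named for either age. Values are FPKM, fragments per kilobase of transcript scaled to library size, so levels of different genes are comparable per length. Separate animals are not named in the labels, so every p-value here reflects how much these particular libraries vary, and part of that variation may be technical.

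Granulosa cells are the somatic cells that surround the oocyte, and in the newborn mouse they assemble with it into primordial follicles. Stromal cells lie between the follicles. They lay down an interstitial matrix of collagen fibrils, whose spacing is set by small leucine-rich proteoglycans such as decorin, biglycan and lumican, and whose cross-links are made by lysyl oxidase. PDGF receptors and the transcription factors TCF21 and NR2F2 (COUP-TFII) mark mesenchymal and interstitial cells in the gonad. In RNA from a cell preparation, fewer cells of a type and less RNA per cell cannot be told apart.

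Markers of the labelled cell type were read first, though their presence alone does not settle which cells made the RNA. All 13 granulosa markers looked for, Foxl2, Kitl and Amhr2 among them, had a row, and their summed level lay between 196.0 and 228 FPKM at PND1 and between 191 and 222 FPKM at PND4. Kitl, the KIT ligand made by granulosa cells, was the most abundant, at 71.5 ± 13.2 and 67.7 ± 4.52 FPKM (SD, n = 4 per age). The stromal markers summed to between 219 and 272 FPKM at PND1 and between 256 and 371 FPKM at PND4. All 6 ovarian surface epithelium markers looked for had a row too, and summed to 96.8 to 340 and 184 to 424 FPKM at these ages. The totals of all listed genes were 443333 to 505035 FPKM per library, and 222 to 1234 genes per library were listed at exactly 0. Mitochondrial genes held 26.6% to 30.6% of the total at PND1. At PND4 they held 29.4% in replicate 1 and 22.4% to 23.4% in the other libraries. Both libraries numbered 1 had the most zeros, 1234 at PND1 and 1097 at PND4, against at most 858 in the others. Read depth is unknown.

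The 9 stromal markers were present at very unequal levels, and Bgn and Lox made up most of their signal. Over the 8 libraries Bgn averaged 109 FPKM (higher than 96.1% of the listed genes) and Lox 85.5 FPKM, and the pair held 52.9% to 79.9% of the summed level of the markers in each library. Dcn averaged 28.0 FPKM, Mfap4 17.1, Tcf21 15.3, Nr2f2 4.46, Postn 3.89, Pdgfra 3.83 and Lum 2.57. Lox stood above Dcn, and Tcf21 above Nr2f2, in all 8 libraries. Bgn stood above Lox in 6 of 8 libraries, Mfap4 above Tcf21 in 5, and Nr2f2 above Postn and Postn above Pdgfra in 4 each, so those neighbours did not differ beyond their spread. Lum, the least abundant marker, still ranked above 18.2% of the listed genes.

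**Figure D1:**
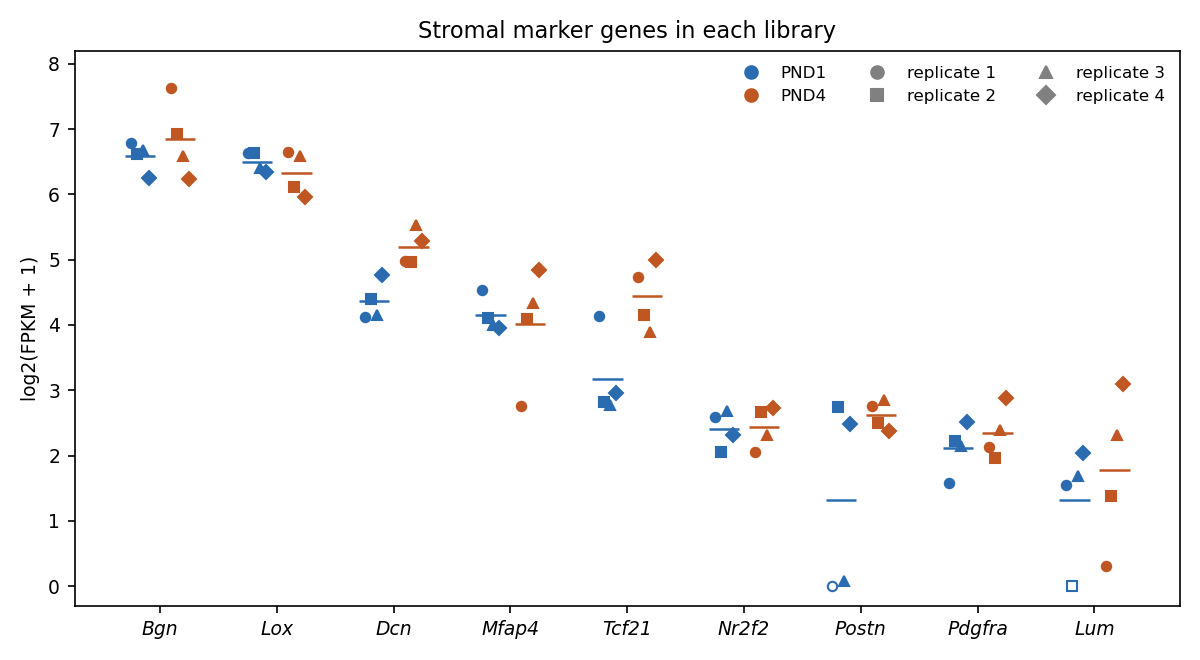
Expression of the 9 stromal marker genes as log2(FPKM + 1) in each library (blue PND1, orange PND4, symbols by replicate number, open symbols listed at 0, lines at the mean of 4 libraries). Dcn is the gene whose PND4 libraries, 30.3 to 45.4 FPKM, all lie above its PND1 libraries, 16.4 to 26.2 FPKM.

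The sequence just before the start of transcription is shown for Bgn, the most abundant marker, and for Postn, the marker with the most uneven PND1 values, since the letters of these promoters differ in kind. Both are 250 bases on the plus strand, 5′ to 3′, from the RefSeq table on GRCm38.p6, at chrX:73483351-73483600 for Bgn and at chr3:54360857-54361106 for Postn. Capitals mark every match to the E-box CANNTG, the class of site bound by basic helix-loop-helix factors such as TCF21, and every match to the TATA-box letters TATAAA, each searched on both strands (CANNTG is its own reverse complement).
Bgn: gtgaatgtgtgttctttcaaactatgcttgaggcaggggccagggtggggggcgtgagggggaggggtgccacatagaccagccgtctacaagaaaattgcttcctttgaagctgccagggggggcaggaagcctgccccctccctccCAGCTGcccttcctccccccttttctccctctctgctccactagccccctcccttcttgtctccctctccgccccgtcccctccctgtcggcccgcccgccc
Postn: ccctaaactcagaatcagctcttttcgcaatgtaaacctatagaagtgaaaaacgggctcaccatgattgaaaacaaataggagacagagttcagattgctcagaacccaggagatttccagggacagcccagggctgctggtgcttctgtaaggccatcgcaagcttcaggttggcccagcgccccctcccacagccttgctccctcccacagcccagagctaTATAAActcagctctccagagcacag
The Bgn stretch held 1 E-box, CAGCTG, which begins 102 bases before the start, and no TATAAA. The Postn stretch held TATAAA beginning 26 bases before the start, and no E-box. Of 32851 such stretches in the table, 66.2% held CANNTG, 13% held CAGCTG and 12.4% held TATAAA. The table held 5 of the 9 markers, with 6 starts (a second for Postn, not shown), of which Pdgfra and Nr2f2 also had 1 E-box each, neither of them CAGCTG, and Tcf21 had none. A match is a string of letters and not a measured binding site.

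The comparison of the ages asks whether transcripts of these marker genes differ in granulosa cell preparations between PND1 and PND4. Which cells of the preparation made them, granulosa cells included, was not measured. None of the 9 markers passed the test over all genes (limma on log2(FPKM + 1), adjusted p under 0.05, 10756 genes tested), and neither did almost any other gene, as 0.0093% of genes tested were called. All 9 markers passed the filter on low values. At an unadjusted p under 0.05, 2 of the 9, Dcn and Tcf21, were higher at PND4 and 0 were lower, where 4.06% of all tested genes were higher and 1.84% lower (5.9% in either direction). The log2 difference was above 0 for 7 of the 9 markers and for 60.3% of all genes. The median of the markers was 0.26 and that of all genes 0.078. It was 0.040 without PND4 replicate 4, and 0.41 without the libraries numbered 1 that had the most zeros. These genes were picked with earlier results of these libraries known, so their count is a description. In the authors' deposited table the q-values of the 9 markers ran from 0.734 to 0.967.

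**Figure D2:**
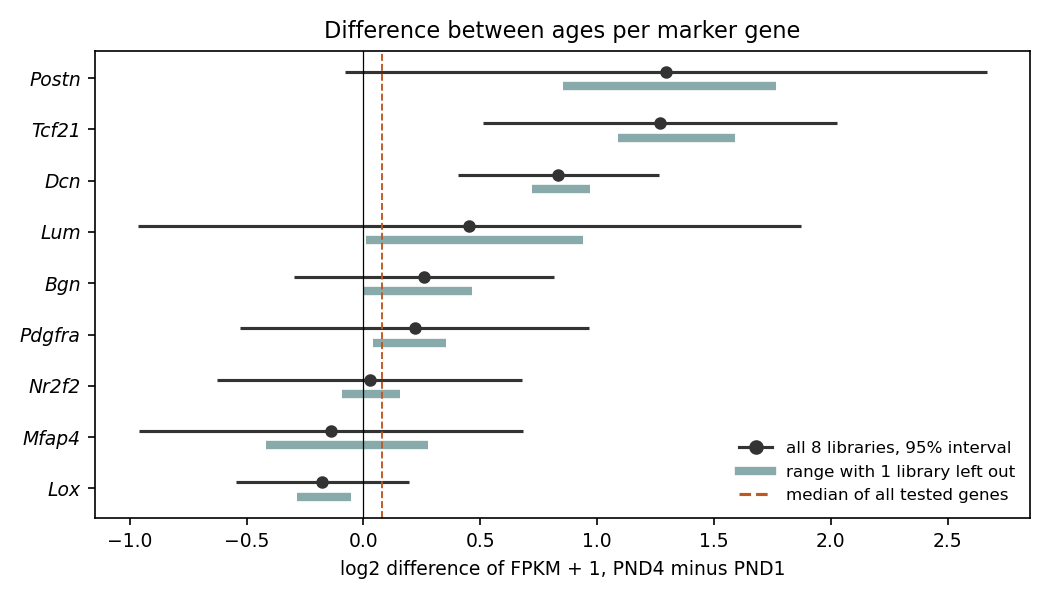
Log2 difference of FPKM + 1 (PND4 minus PND1) per marker gene, with its 95% interval over 8 libraries (black) and its range when each library is left out in turn (grey-green). The intervals of Dcn (0.40 to 1.26) and Tcf21 (0.51 to 2.03) lie above 0, and the leave-out ranges of Bgn, Nr2f2 and Mfap4 span it.

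Among the proteoglycans, decorin had the clearest separation of the ages. Dcn (ENSMUSG00000019929, chr10:97479609-97518143 on GRCm38, plus strand) encodes a secreted proteoglycan that binds collagen fibrils and TGF-beta. It stood at 16.4, 20.2, 16.7 and 26.2 FPKM in PND1 replicates 1 to 4 and at 30.7, 30.3, 45.4 and 38.1 FPKM in PND4 replicates 1 to 4. No PND1 library reached the lowest PND4 library, a separation upwards that 3.16% of all tested genes had and Dcn alone of the 9 markers. No marker had all PND4 libraries below all PND1 libraries, as 1.08% of tested genes did. The means were 19.9 ± 4.55 and 36.1 ± 7.12 FPKM (SD, n = 4 per age), with a log2 difference of 0.83 (SE 0.20, limma unadjusted p = 0.00133, adjusted p = 0.556). The exact two-sided permutation gave p = 0.0286, the smallest that 4 against 4 allows and shared by 456 of the 10756 genes (adjusted p = 0.674). With any 1 library left out the difference stayed between 0.72 and 0.97.

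Biglycan, the closest relative of decorin in this group, did not separate the ages. Bgn (ENSMUSG00000031375, chrX:73483602-73495933, plus strand) stood at 110, 97.4, 102 and 75.0 FPKM at PND1 and at 197, 120, 95.4 and 74.1 FPKM at PND4. PND4 replicate 1 was the highest and PND4 replicate 4 the lowest of all 8, so the PND4 libraries spanned the whole PND1 range. The log2 difference was 0.26 (95% interval -0.30 to 0.81, limma adjusted p = 0.872), and it was -0.0023 without PND4 replicate 1.

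Lumican, another fibril-binding proteoglycan, lies 46984 bases from Dcn with no protein-coding gene between them (Lum, ENSMUSG00000036446, chr10:97565128-97572703). It was listed at 1.93, 0, 2.23 and 3.10 FPKM at PND1 and at 0.244, 1.60, 3.95 and 7.52 FPKM at PND4. PND4 replicate 4 was the highest and PND4 replicate 1 next to the lowest, so the ages overlapped. An exact 0 can be a failed estimate. Its log2 difference of 0.45 (95% interval -0.97 to 1.87, limma adjusted p = 0.913) was 0.013 without PND1 replicate 2, the library at 0, and also 0.013 without PND4 replicate 4.

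Of the genes for cross-linking, microfibrils and matrix assembly, none separated the ages. Lox (ENSMUSG00000024529), the enzyme that cross-links collagen and elastin, stood at 97.8, 98.7, 83.6 and 80.0 FPKM at PND1 and at 99.4, 68.3, 95.04 and 61.2 FPKM at PND4. The ages overlapped, with PND4 replicates 2 and 4 below all others. Its log2 difference was -0.18 (95% interval -0.54 to 0.19, limma adjusted p = 0.869), the lowest among the markers.

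Mfap4 (ENSMUSG00000042436, chr11:61485431-61488900, plus strand), which encodes a glycoprotein of elastic microfibrils, stood at 22.2, 16.2, 14.9 and 14.5 FPKM at PND1 and at 5.80, 16.1, 19.1 and 27.8 FPKM at PND4. The highest and the lowest value of the 8 both came from PND4. The log2 difference of -0.14 (95% interval -0.96 to 0.68, limma adjusted p = 0.960) turned to 0.28 without PND4 replicate 1, the library with 5.80 FPKM. Mfap4 shares 89 exonic bases with Mapk7 on the opposite strand, and the sources used here do not say if reads were assigned by strand.

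Periostin, a matricellular protein that binds collagen and integrins, was uneven within PND1. Postn (ENSMUSG00000027750, chr3:54361109-54391037, plus strand) was listed at 0, 5.68, 0.0610 and 4.56 FPKM at PND1 and at 5.75, 4.66, 6.20 and 4.21 FPKM at PND4. PND1 replicates 1 and 3 were at or near 0, and the other 6 libraries fell between 4.21 and 6.20 FPKM whatever their age. The log2 difference of 1.30 (95% interval -0.079 to 2.67, limma unadjusted p = 0.0623, adjusted p = 0.805) rests on those libraries. It was 0.51 with a pseudocount of 5, 2.69 with a pseudocount of 0.1, and 0.85 without PND1 replicate 1.

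Of the PDGF receptors, which bind growth factors that drive mesenchymal cell growth, only Pdgfra had a row (ENSMUSG00000029231, chr5:75152292-75198215, plus strand). It stood at 1.99, 3.68, 3.43 and 4.73 FPKM at PND1 and at 3.37, 2.88, 4.24 and 6.35 FPKM at PND4. The ages overlapped, with the lowest value in PND1 replicate 1 and the highest in PND4 replicate 4. The log2 difference was 0.22 (95% interval -0.53 to 0.97, limma adjusted p = 0.921), and it was 0.040 without PND4 replicate 4. Pdgfra shares 456 exonic bases with the antisense gene Gm42802.

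The stromal transcription factors with a row were Tcf21 and Nr2f2, and a difference between them in the change with age was not tested. Tcf21 (ENSMUSG00000045680, chr10:22817281-22820174, minus strand), a basic helix-loop-helix factor of gonadal mesenchyme, stood at 16.6, 6.05, 5.82 and 6.80 FPKM at PND1 and at 25.6, 16.8, 13.8 and 30.7 FPKM at PND4. The ages overlapped through PND1 replicate 1 alone, which exceeded PND4 replicate 3. The means were 8.81 ± 5.19 and 21.7 ± 7.80 FPKM (SD, n = 4 per age), with a log2 difference of 1.27 (SE 0.34, limma unadjusted p = 0.00355, adjusted p = 0.736). The exact two-sided permutation gave p = 0.0571, and with any 1 library left out the log2 difference stayed between 1.09 and 1.59.

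Nr2f2 (ENSMUSG00000030551, chr7:70351944-70366735, minus strand), an orphan nuclear receptor of interstitial cells, stood at 5.01, 3.17, 5.42 and 3.99 FPKM at PND1 and at 3.14, 5.36, 3.96 and 5.60 FPKM at PND4. The ranges of the ages were nearly the same. The log2 difference was 0.026 (95% interval -0.63 to 0.68, limma adjusted p = 0.988), and its sign turned with median-of-ratios scaling (-0.040). Nr2f2 shares 643 exonic bases with B130024G19Rik on the opposite strand.

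Covariation over the 8 libraries measures whether markers were high and low in the same libraries. Of 36 pairs of markers, 19 had a Pearson's r above 0 (52.8%), against 56.2% of all pairs of tested genes. The median r was 0.017 for the markers and 0.074 for all genes. An r above 0.5 was had by 8 marker pairs (22.2%, against 16.6% of all pairs) and an r below -0.5 by 7 (19.4%, against 9.50%). With median-of-ratios scaling the share below -0.5 was 13.9% (5 pairs) against 12.96% of all pairs. The share above 0.5 stayed at 22.2% (8 pairs), against 13.3% of all pairs. The median r with this scaling was -0.029 for the markers and -0.0014 for all genes. After Benjamini-Hochberg adjustment over the 36 pairs, 0 passed by Pearson's r (smallest adjusted p = 0.367, exact permutation) and 0 by Spearman's rho (smallest adjusted p = 0.164, exact permutation), with 2 and 3 pairs at an unadjusted exact p under 0.05. Genes are not independent, and libraries differ in age, so with the age means subtracted the median r was -0.062 and 16 of 36 pairs were above 0.

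**Figure D3:**
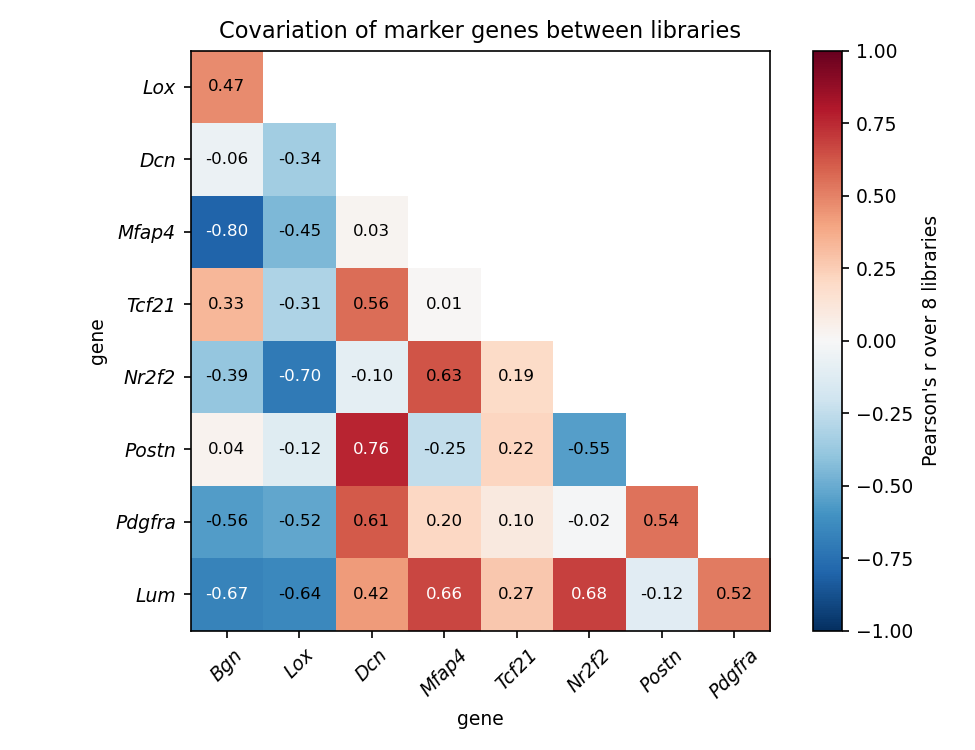
Pearson's r of log2(FPKM + 1) over the 8 libraries for each of the 36 pairs of stromal marker genes, ordered by mean level (red positive, blue negative). Bgn and Lox, at 0.47 with each other, are mostly negative against the other markers, and Dcn with Postn (0.76) has the highest value.

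The highest r was between Dcn and Postn, at 0.76 (exact permutation p = 0.0299, adjusted p = 0.367), with rho 0.69 (exact permutation p = 0.0694, adjusted p = 0.495). It rested on PND1 replicates 1 and 3, the libraries where both genes were low, as r was 0.042 without them. Dcn and Tcf21, the markers with the clearest age difference, had r of 0.56 (exact permutation p = 0.156, adjusted p = 0.469) and rho of 0.55 (exact permutation p = 0.171, adjusted p = 0.644). Without the libraries farthest from the Dcn median, again PND1 replicates 1 and 3, r was 0.66. With the age means subtracted r was -0.38, and with 4 libraries it was -0.42 within PND1 and -0.32 within PND4.

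The neighbours Dcn and Lum had r of 0.42 (exact permutation p = 0.299, adjusted p = 0.597) and rho of 0.43 (exact permutation p = 0.299, adjusted p = 0.673), and r was 0.71 without PND1 replicates 1 and 3. The most negative pair was Mfap4 and Bgn, with r of -0.80 (exact permutation p = 0.0348, adjusted p = 0.367) and rho of -0.45 (exact permutation p = 0.267, adjusted p = 0.673). This value rested on PND4 replicates 1 and 4, without which r was 0.41. Pdgfra and Bgn had the strongest rank order, with rho of -0.90 (exact permutation p = 0.00456, adjusted p = 0.164) and r of -0.56 (exact permutation p = 0.149, adjusted p = 0.469), and r was -0.64 without PND1 replicate 1 and PND4 replicate 4. Of the 8 partners of Lox, only Bgn had a positive r with it.

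**Figure D4:**
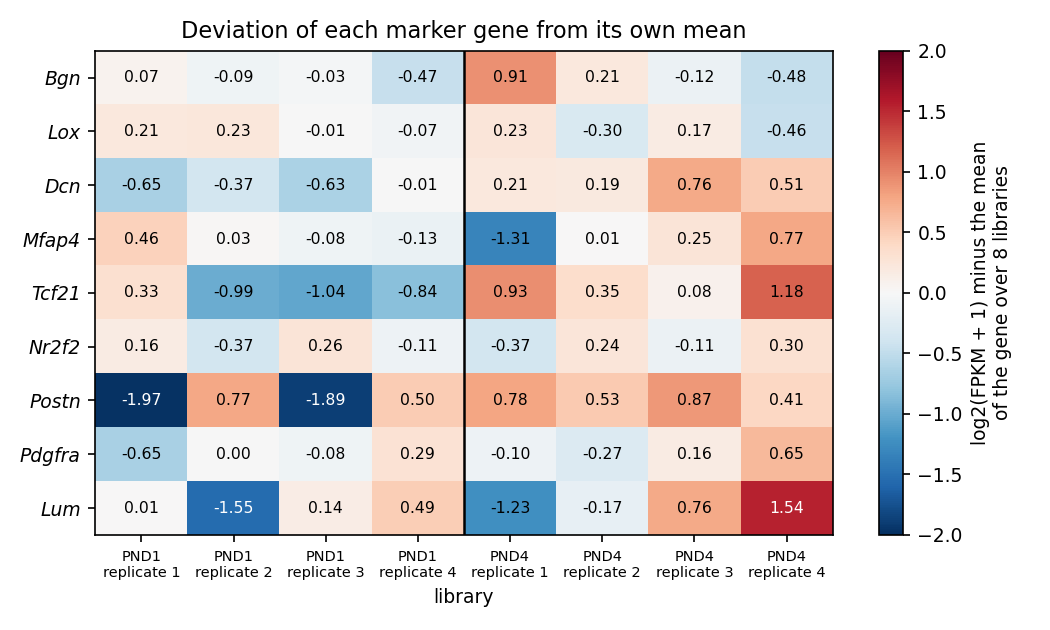
Deviation of each marker gene from its own mean over the 8 libraries, in log2(FPKM + 1), with libraries as columns and the ages divided by the black line. PND4 replicate 1 is high for Bgn (0.91) and low for Mfap4 (-1.31) and Lum (-1.23), and PND4 replicate 4 is high for Lum (1.54) and low for Bgn (-0.48).

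The library profiles show where the pairs part. In PND4 replicate 1, Bgn was 0.91 above its own mean on the log2 scale and Tcf21 0.93 above, while Mfap4 was 1.31 below and Lum 1.23 below. In PND4 replicate 4, Lum, Tcf21, Mfap4, Nr2f2 and Pdgfra each had their highest value, and Bgn and Lox their lowest. The summed levels of all 9 markers, 219 to 272 FPKM at PND1 and 256 to 371 FPKM at PND4, overlapped between the ages. Without Bgn and Lox, which held most of that total, the sums did not overlap. They were 48.7 to 64.2 FPKM at PND1 and 74.6 to 120 FPKM at PND4. Dcn and Tcf21 are part of these smaller sums, which were not tested.

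For each marker the gene most like it was sought among 4649 named genes of at least median level, by Pearson's r over the 8 libraries. The most like Dcn was Sptssa, for a small subunit of serine palmitoyltransferase, with r of 0.98. The most like Tcf21 was the mitochondrial ribosomal protein gene Mrpl15 (r = 0.94), and the most like Bgn was the translation initiation factor gene Eif3f (r = 0.97). Lox had Chst11, for a chondroitin sulfotransferase (r = 0.90), Mfap4 had Ggps1, for geranylgeranyl diphosphate synthase (r = 0.97), and Postn had Tubg1, for gamma-tubulin (r = 0.97). Pdgfra had Tspan31 (r = 0.98), Nr2f2 had Tbrg1 (r = 0.95) and Lum had the ribosomal protein gene Rpl12 (r = 0.93). None of these genes is in the stroma-related lists, but the search in part fixed this. It left out the markers themselves and genes below the median level, among them Ogn, Prelp, Snai2 and Tcf4. The highest of so many correlations over 8 libraries is high for any gene, so these values are a description.

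The families to which the markers belong were read in the same fit, and 0 genes of any of these lists passed (limma, adjusted over all genes). The small leucine-rich proteoglycans had 5 of 11 genes in the table, all with log2 differences above 0 (Prelp, at 0.020, turned to -0.026 with median-of-ratios scaling) and a median of 0.45. Beside Dcn, Lum and Bgn these were Ogn (osteoglycin), which averaged 3.08 ± 0.996 FPKM on day 1 and 4.97 ± 1.71 on day 4, and Prelp, at 3.90 ± 2.10 and 3.90 ± 2.07 FPKM (SD, n = 4 per age). The list is thus mostly the markers again. Ogn and Prelp, the 2 that are not markers, had a median log2 difference of 0.28, and 60.3% of all tested genes were above 0. At an unadjusted p under 0.05 there was 1 gene in this list, Dcn, where 4.06% of all tested genes were higher and 1.84% lower. The 7 fibrillar and fibril-associated collagens with a row had a median of 0.19, with 5 above 0 and 1, Col1a1, at an unadjusted p under 0.05. Col1a1, a chain of type I collagen, stood at 20.001 ± 4.21 and 27.7 ± 5.68 FPKM (log2 difference 0.45, limma unadjusted p = 0.0486, adjusted p = 0.805), and Col3a1, of type III collagen, at 29.6 ± 4.24 and 31.9 ± 6.09 FPKM.

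The lysyl oxidase family had 4 of 5 genes in the table and a median log2 difference of 0.11. Loxl2 averaged 31.3 ± 6.43 FPKM on day 1 and 32.9 ± 9.08 on day 4, and Loxl1 at 16.3 ± 1.67 and 18.4 ± 2.51 FPKM. Elastic fibre and microfibril genes, 14 tested, had a median of -0.070, below that of all genes, with 5 above 0 and 9 below. At an unadjusted p under 0.05, 2 of them were lower and 0 higher, the microfibril gene Mfap2 and the elastin gene Eln. Of all tested genes 1.84% were lower and 4.06% higher at that threshold. Mfap2 stood at 49.5 ± 24.03 and 30.6 ± 6.19 FPKM (log2 difference -0.60, limma unadjusted p = 0.0481, adjusted p = 0.805), and at -0.31 without PND1 replicate 1. Eln, named for that count, had 13.7 ± 3.39 FPKM at PND1 and 8.36 ± 3.11 at PND4, and Efemp2, a fibulin needed for elastic fibre assembly, at 35.9 ± 6.52 and 30.0 ± 2.87 FPKM.

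**Figure D5:**
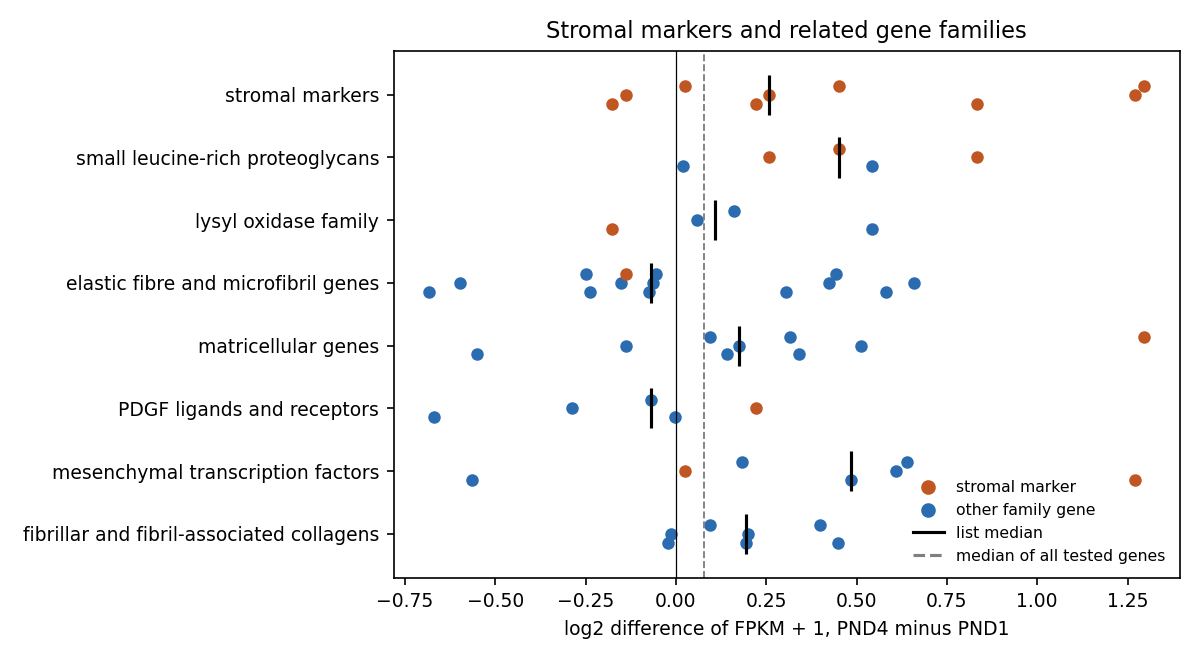
Log2 difference of FPKM + 1 (PND4 minus PND1) of every tested gene of the stromal marker list and of 7 related families (orange stromal markers, blue other genes, black bars list medians). List medians run from -0.070 for the elastic fibre and PDGF lists to 0.48 for the mesenchymal transcription factors, with all tested genes at 0.078.

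Matricellular genes, 9 tested, had a median of 0.17, with 7 above 0 and 0 at an unadjusted p under 0.05. They were the most abundant of these lists. Spp1 (osteopontin) averaged 727 ± 139 FPKM on day 1 and 926 ± 214 on day 4, and the YAP target Cyr61 at 637 ± 105 and 677 ± 82.2 FPKM, far above Postn. In the PDGF list the 4 ligand genes were all below 0, with a median of -0.18, against 0.22 for Pdgfra. Pdgfb stood at 20.7 ± 4.30 and 20.4 ± 1.60 FPKM and Pdgfa at 20.3 ± 2.40 and 16.7 ± 3.82 FPKM, levels above that of their receptor Pdgfra, and the sign of Pdgfb, at -0.0026, turned without PND1 replicate 2 (0.080).

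The mesenchymal transcription factors had 10 of 14 genes in the table and 7 tested, with a median log2 difference of 0.48 and 6 above 0 (with median-of-ratios scaling Nr2f2 was below 0, at -0.040). Tcf21 was the 1 gene of this list at an unadjusted p under 0.05, where 4.06% of all tested genes were higher. Snai2, a regulator of epithelial-mesenchymal transition, stood at 3.87 ± 2.03 and 6.14 ± 1.77 FPKM and Tcf4 at 2.84 ± 0.652 and 3.36 ± 0.861 FPKM. Tcf21 was the most abundant of the list, and 3 of its genes, Prrx2, Osr1 and Osr2, were left out by the filter on low values.

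Markers of other cells that such a preparation can hold were summed beside the stromal markers. None of the 8 endothelial markers had a row. Of the pericyte and smooth muscle list 5 of 11 had a row, with Rgs5, Cspg4, Notch3, Abcc9, Kcnj8 and Myh11 among those without. The list summed to 862 to 1569 FPKM at PND1 and 700 to 1341 at PND4, nearly all from Acta2 and Tagln, with Tagln at 547 ± 178 and 464 ± 108 FPKM. The highest sum of each age was 1569 FPKM in PND1 replicate 2 and 1341 FPKM in PND4 replicate 1. Whether this list varied with Bgn was not tested. Theca and Leydig-type genes had 2 of 8 rows and summed to 4.71 to 12.6 FPKM at PND1 and 2.33 to 6.26 at PND4, with Star at 4.99 ± 1.197 and 3.05 ± 1.04 FPKM and Cyp17a1 and Cyp11a1 among those without a row.

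Ovarian surface epithelium markers, 6 of 6 with a row, summed to 96.8 to 340 FPKM at PND1 and 184 to 424 at PND4, with Krt19 the most abundant at 120 ± 51.4 and 126 ± 55.9 FPKM. Oocyte markers, 8 of 10 with a row, summed to 9.79 to 41.4 FPKM at PND1 and 15.8 to 179 at PND4, with the highest sum in PND4 replicate 3, where Dcn was also highest. Zp3, for a zona pellucida protein, stood at 4.88 ± 5.53 and 24.6 ± 24.5 FPKM. The oocyte list was mixed, as of 7 tested genes 4 had log2 differences above 0 and 3 below. At an unadjusted p under 0.05 there were 1 higher (Zp3) and 2 lower, where 4.06% of all tested genes were higher and 1.84% lower. The 2 lower were the oocyte transcription factor Figla (-1.77) and the germ cell RNA-binding protein gene Dazl (-1.24). PND4 replicate 3 held the highest oocyte sum. The surface epithelium sum was highest in that library too, at 424 FPKM. Without PND4 replicate 3 the log2 difference of Dcn was 0.72. The oocyte sums also varied among the other libraries. Whether the oocyte or the surface epithelium list varied with Dcn was not tested. Immune markers, 4 of 8, summed to 8.82 to 28.3 FPKM at PND1 and 2.92 to 57.1 at PND4, with the highest sum in PND4 replicate 1. Lyz2 (lysozyme) stood at 7.18 ± 5.81 and 17.7 ± 25.9 FPKM (log2 difference 0.13). It alone held 55.8 FPKM of the sum in PND4 replicate 1 and was listed at 0 in PND4 replicate 2. This list was mixed too, as of 3 tested genes 1 had a log2 difference above 0 and 2 below. Erythroid markers, 3 of 6 with a row, summed to 17.1 to 48.9 FPKM at PND1 and 0.268 to 11.4 at PND4. All 3 are globin genes and had limma unadjusted p under 0.05, lower at PND4, where 1.84% of all tested genes were lower. Hba-a2 stood at 10.5 ± 5.02 and 2.01 ± 1.66 FPKM (limma unadjusted p = 0.00149, adjusted p = 0.556), though near-identical globin copies can share reads. The part of these cells in the differences of the stromal markers was not tested.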

How the data were processed

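RNA came from a Qiagen RNeasy kit, per the labels' protocols. The submitters' processing notes name Trim Galore, HISAT2 and the build GRCm38, without versions. The authors deposited FPKM values for 8 libraries, per the file headers, and the program, annotation, strand setting and gene filter behind them are not stated in any source used here. For each gene the authors also deposited a fold (ratio of the ages), its log2 value, its p-value and its q-value, by a test that is likewise not stated, and only q-values are quoted. Low values did not fall on whole multiples of 1 read (at most 28.7% within 0.1, where 20% would by chance), so depth is unknown.

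The test covered 10756 of 11783 genes, those reaching 1 FPKM in 4 or more libraries. It was run on log2(FPKM + 1), a scale that understates folds of low genes, with limma 3.58.1 in R 4.3.3 (mean-dependent prior variance, no block, PND4 minus PND1), adjusted by Benjamini-Hochberg at 0.05. On simulated data for this comparison and these 10756 genes, 8.2% of genes changed 1.5-fold were recovered, 35.2% of those changed 2-fold and 71% of those changed 4-fold. The simulation drew noise independently for each gene at its estimated spread and added changes on the log2(FPKM + 1) scale. The planted changes also ease the adjustment, so these shares are not the power of the test for folds of FPKM in these libraries. The members and lists were chosen with earlier results of these data known. After its values were known, 1 gene was dropped from the lists, and it is not reported here; counts and medians cover all other listed genes, named or not. Named beside the 9 markers were the 2 most abundant other genes of each related family, the most abundant gene of each list of another cell type, and the gene most correlated with each marker. Eln, Figla, Dazl, Foxl2, Amhr2, Acta2 and genes without a row or left out by the filter were named to spell out a count. The symbols Ccn1 and Ccn2 are in the table as Cyr61 and Ctgf. Correlations used exact permutation of all pairings. Positions came from GENCODE M21. Alternatives were other scalings, pseudocounts, filters, a replicate block, robust variances, array weights, exact permutation and leaving out libraries. Figures were drawn with matplotlib 3.10.9.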

Additional observations from a re-analysis of the deposited data

Results flagged for a closer look

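In 64 groups of 4 values, 5 held a library far from the others, where chance flags about 1 in 20 groups. The 64 include the endothelial sums, which are 0 throughout and could not be flagged. Groups are not independent, as list sums hold genes also checked singly. Tcf21 in PND1 replicate 1 stood at 16.6 FPKM, against 5.82 to 6.80 in the other PND1 libraries. Mfap2 was also apart in PND1 replicate 1, at 85.2 FPKM against 34.4 to 42.5. Ogn in PND4 replicate 4 stood at 7.53 FPKM against 3.98 to 4.26. The summed pericyte and smooth muscle markers stood at 1569 FPKM in PND1 replicate 2 against 862 to 950.2, and the summed oocyte markers at 179 FPKM in PND4 replicate 3 against 15.8 to 36.9.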

How the results depend on the processing

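No marker passed limma's adjusted test under any alternative run, and 2 of 9 had an unadjusted p under 0.05 (3 without PND1 replicate 2 or PND1 replicate 4). Over these settings the adjusted p of Dcn ran from 0.294 to 0.874 and that of Tcf21 from 0.178 to 0.887. Over all genes 0 were higher under every setting, and the count lower, 1, was 0 with at least 5 FPKM in all 8 libraries and 2 with array weights. The stricter filter left 4 markers untested. The marker median was 0.040 to 0.35 with 1 library left out and 0.41 without both libraries numbered 1. Median-of-ratios scaling took the median of all genes from 0.078 to 0.0089.

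Signs turned for 7 of 23 genes, and the cause was not tested. With median-of-ratios and upper-quartile scaling these were Nr2f2 (-0.040 and -0.047), Prelp (-0.026 and -0.036) and Loxl2 (-0.017 and -0.026). With array weights and without both libraries numbered 1 these were Mfap4 (0.25 and 0.41), Prelp (-0.39 and -0.51), Loxl2 (-0.16 and -0.19) and Pdgfb (0.12 and 0.099). With 1 library left out, Nr2f2 ran from -0.091 to 0.16, Mfap4 from -0.42 to 0.28, Bgn from -0.0023 to 0.46, Prelp from -0.32 to 0.25, Loxl2 from -0.094 to 0.18, Pdgfb from -0.11 to 0.080 and Col3a1 from -0.0078 to 0.21.

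No marker pair passed adjustment under any alternative, and with 1 library left out 15 to 21 of 36 pairs had an r above 0. Same-numbered libraries of the ages had correlations of deviations of 0.046, -0.0088, 0.032 and 0.12 across genes. Those of differently numbered libraries ran from -0.14 to 0.11. The labels do not say that a number is shared, so the numbers were not taken as pairs. With the replicate block the adjusted p was 0.720 for Dcn and 0.573 for Tcf21, and 0 markers were called. Depth is unknown, so the limit it sets on Lum, Postn and Pdgfra, the least abundant markers, cannot be given.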
